A study of Mus musculus with 9 samples.

Results

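The genes of 9 enzymes between squalene and cholesterol were followed: *Sqle*, *Lss*, *Cyp51*, *Msmo1*, *Nsdhl*, *Hsd17b7*, *Ebp*, *Sc5d* and *Dhcr7*. They were taken by symbol from a gene-level table of 54432 genes, and all 9 passed the filter on low counts that left 12637 genes for testing. The libraries came from RAW 264.7, a macrophage-like mouse cell line, and fell into 3 groups of 3. Cells were left untreated (control) or were given VLDL-sized or CHYL-sized emulsion particles for 6 h, at 1 mM by the labels. The study's texts do not give the same dose of CHYL-sized particles throughout, so an equal dose is not certain where the particle sizes are compared. Both kinds of particle were made of sunflower oil with sodium caseinate as emulsifier and differed in size, and the controls received neither oil nor caseinate. The samples of a condition within an experiment had been pooled, so a library stands for 1 pool. Both biological and technical triplicates were made, and the sources do not say that the 3 libraries of a group are separate experiments, so the p-values below measure the spread between these libraries, which may be partly technical. In bulk RNA, fewer cells with a transcript and less transcript per cell cannot be told apart.

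Cholesterol is built from acetyl-CoA through mevalonate and farnesyl diphosphate to squalene. Squalene is then oxygenated, folded into the ring system of lanosterol and stripped of methyl groups, and its double bonds are moved or reduced until cholesterol is reached. The genes of these enzymes are textbook targets of SREBP2, a membrane-bound transcription factor that is released from the endoplasmic reticulum when sterols are scarce, and whose partners at promoters include the CCAAT-binding factor NF-Y and Sp1, which binds GC boxes.

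The promoter windows of 8 of the 9 genes were found in RefSeq (GRCm38.p6), from 250 bases before to 50 bases after the transcription start. No window of *Sqle* was found, so its promoter was not searched. Windows of 4 genes are printed here 5′ to 3′ on the gene's own strand because they carry the motif that all 8 held, in genes from the largest to the smallest change described below. Capitals mark the NF-Y box, CCAAT, or ATTGG where it lies on the other strand. They lie at chr5:4104648-4104947, minus strand (*Cyp51*), chr8:64733529-64733828, minus strand (*Msmo1*), chr10:76531355-76531654, plus strand (*Lss*) and chrX:8193463-8193762, minus strand (*Ebp*).
Cyp51: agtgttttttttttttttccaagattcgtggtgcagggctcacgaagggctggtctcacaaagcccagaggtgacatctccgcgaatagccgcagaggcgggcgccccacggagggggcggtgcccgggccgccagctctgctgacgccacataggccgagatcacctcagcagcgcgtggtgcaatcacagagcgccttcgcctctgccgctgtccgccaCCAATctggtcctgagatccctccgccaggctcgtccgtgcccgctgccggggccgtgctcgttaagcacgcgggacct
Msmo1: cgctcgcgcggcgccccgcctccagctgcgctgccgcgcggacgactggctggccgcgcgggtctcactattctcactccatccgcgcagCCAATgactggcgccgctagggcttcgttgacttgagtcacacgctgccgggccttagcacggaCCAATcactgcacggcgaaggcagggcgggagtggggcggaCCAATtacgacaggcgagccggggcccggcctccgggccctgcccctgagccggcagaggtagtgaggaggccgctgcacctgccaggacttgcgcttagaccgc
Lss: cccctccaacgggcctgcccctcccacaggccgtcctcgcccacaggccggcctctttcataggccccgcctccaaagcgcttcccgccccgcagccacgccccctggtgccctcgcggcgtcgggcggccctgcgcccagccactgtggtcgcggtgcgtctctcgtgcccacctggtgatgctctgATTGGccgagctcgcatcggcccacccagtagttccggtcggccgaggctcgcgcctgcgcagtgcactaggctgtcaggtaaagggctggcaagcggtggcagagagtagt
Ebp: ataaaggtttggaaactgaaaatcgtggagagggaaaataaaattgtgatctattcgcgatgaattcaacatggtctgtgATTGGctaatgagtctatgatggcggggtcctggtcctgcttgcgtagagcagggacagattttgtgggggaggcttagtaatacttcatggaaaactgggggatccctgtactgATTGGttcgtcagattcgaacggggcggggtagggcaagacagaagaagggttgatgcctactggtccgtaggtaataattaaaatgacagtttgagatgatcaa

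CCAAT was found on either strand in the windows of 8 of 8 genes, and in 41.1% of the 27025 genes with windows. Those 27025 were not limited to the genes tested here. Among related genes with a window, 5 of 6 mevalonate enzymes and 4 of 7 genes that process SREBP held CCAAT. *Nsdhl* held 4 copies, *Hsd17b7* and *Msmo1* 3, *Ebp* 2, and *Cyp51*, *Lss* and *Sc5d* 1. *Dhcr7*, an enzyme gene with 3 annotated starts, held 2 copies in 1 window and none in the others. The copies of *Msmo1* lay on the gene's strand, with first bases at -160, -96 and -55 from the start, while both copies of *Ebp* lay on the other strand. The GC box GGGCGG was also present in 8 of 8, against 38.2% of all genes. It was in 5 of the 6 mevalonate enzymes and in 6 of the 7 genes that process SREBP. The sterol regulatory element was searched only as TCACNCCAC, on both strands. That spelling was in 0 of the 8 and in 1.44% of all genes. Of the 6 mevalonate enzymes with a window, 1 held that spelling. Other spellings of the element were not searched, so its absence from these windows is not shown. The motifs do not overlap in their letters, and a match is a match of letters only. A gene with several windows was counted once, if any of its windows held the motif.

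**Figure D1:**
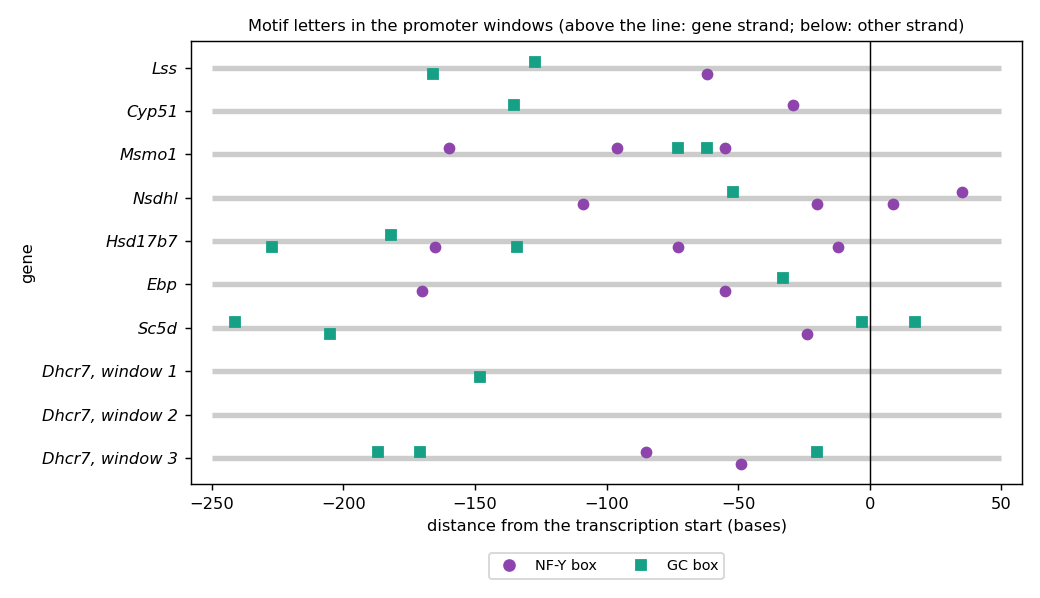
Positions of the NF-Y box (CCAAT, circles) and the GC box (GGGCGG, squares) in the promoter windows of 8 genes, as distance in bases from the transcription start (vertical line), above the bar on the gene's strand and below it on the other. All 8 genes have both in at least 1 window, and *Dhcr7* has its NF-Y boxes in window 3 only.

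Expression was measured at 22393893 to 22856792 estimated counts per library. Values are cpm, a gene's count relative to the size of its library, with library sizes scaled by the TMM method, which centres the bulk of genes. All 6 macrophage markers looked for were present. Their sum was 5349 to 5475 cpm in the control libraries, 4989 to 5188 cpm with VLDL-sized and 5078 to 5282 cpm with CHYL-sized particles, so it was lower in each treated library than in each control. Among them *Fcgr1*, singled out after its values were seen, had 76.2, 74.8 and 59.3 cpm in the control libraries, 38.7, 41.4 and 37.6 cpm with VLDL-sized and 44.4, 44.5 and 41.6 cpm with CHYL-sized particles. *Cd68* went the other way, with 917 to 950 cpm in the control libraries. It had 977 to 1103 cpm with VLDL-sized and 998 to 1051 cpm with CHYL-sized particles, above each control. *Adgre1* overlapped between the groups, with means of 21.1 cpm in control, 22.5 cpm with VLDL-sized and 21.3 cpm with CHYL-sized particles. The part of these shifts in the results below was not tested. Markers of T cells, B cells and epithelial cells stayed at or under 3 counts in each library, and those of fibroblasts summed to at most 2.53 cpm (2 of 3 markers above 3 counts). The replicate 3 libraries stood apart from replicates 1 and 2 in all 3 groups, along a second principal component that held 14.4% of the variance. The tests of the 9 genes were therefore also run on replicates 1 and 2 alone. The 9 genes were expressed at 590 to 9804 estimated counts in each library.

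After VLDL-sized particles all 9 genes fell, by a log2 fold change of -1.66 (*Cyp51*) to -0.21 (*Ebp*). Of all 12637 genes, 17.9% were called lower and 17.8% higher at an adjusted p under 0.05 (limma-voom, Benjamini-Hochberg). The median log2 fold change of the 9 genes was -1.30, and that of all genes tested was -0.00028. More than a halving, a log2 fold change under -1, was called for 6 of the 9 genes and for 2.32% of all genes. In 9 of 9 each treated library lay below each control library, as in 23.7% of all genes.

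After CHYL-sized particles 8 of the 9 genes fell, and *Ebp* did not pass. Of all genes, 13.0% were called lower and 12.7% higher. The median of the 9 genes was -1.20, beside 0.0013 over all genes. Again 6 of the 9 fell by more than 1 on the log2 scale, which 1.23% of all genes did. In 8 of 9 each treated library lay below each control library, against 20.9% of all genes. The control libraries were the same as those set against the VLDL-sized particles, so both sets of falls share any error of the controls. The plot of cpm by library shows the 9 genes.

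**Figure D2:**
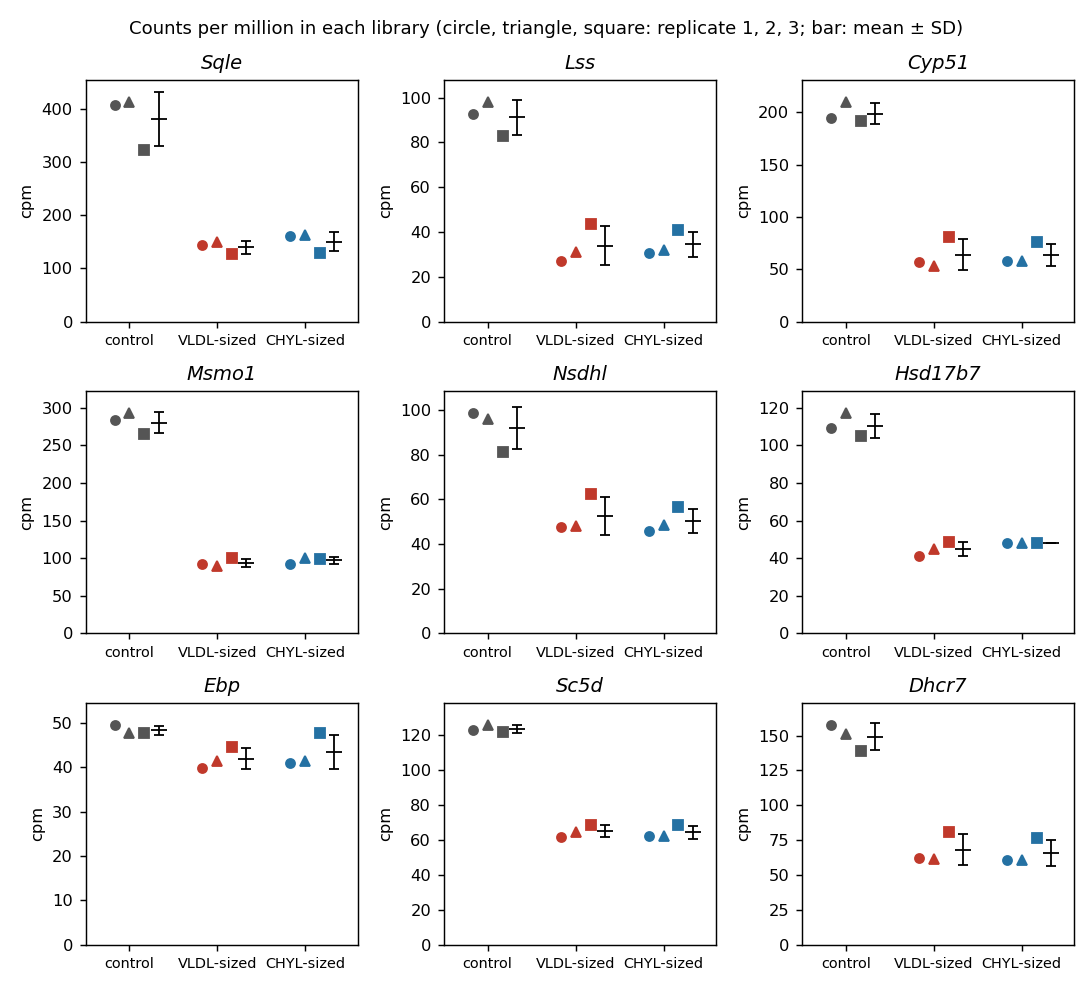
Level in cpm of the 9 genes in each of the 9 libraries, with a vertical axis from 0 for each gene; circle, triangle and square are replicates 1, 2 and 3, and the bar beside them is the mean ± SD (n = 3). For 8 genes the treated libraries sit below all controls, and for *Ebp* the third CHYL-sized library, at 47.8 cpm, reaches the control range.

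Squalene is committed to sterols by a pair of reactions. *Sqle* (ENSMUSG00000022351, chromosome 15 from 59315077 to 59331192, plus strand, GRCm38) encodes squalene epoxidase, which adds oxygen to squalene and is one of the rate-limiting steps of the pathway. Its level was 408, 413 and 322 cpm in the controls, 144, 149 and 126 cpm after VLDL-sized and 160.1, 162 and 129 cpm after CHYL-sized particles. The lowest control was above the highest treated library in both comparisons, and replicate 3 was the lowest library of each group. Its fall came to -1.44 on the log2 scale (standard error 0.11, adjusted p = 7.0e-06) with VLDL-sized and -1.34 (standard error 0.11, adjusted p = 1.9e-05) with CHYL-sized particles.

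*Lss* (ENSMUSG00000033105, chromosome 10 from 76531588 to 76557138, plus strand) encodes lanosterol synthase, which folds the epoxide into the sterol rings. Its controls had 92.6, 98.1 and 82.8 cpm, the VLDL-sized libraries 26.9, 31.1 and 43.7 cpm and the CHYL-sized libraries 30.8, 31.9 and 40.9 cpm. The groups did not overlap, although replicate 3 was the highest treated library and the lowest control. The fall was -1.45 on the log2 scale (standard error 0.15, adjusted p = 4.5e-05) with VLDL-sized and -1.41 (standard error 0.15, adjusted p = 9.2e-05) with CHYL-sized particles. An annotated antisense gene, *4930483K19Rik*, shares 381 exonic bases with *Lss* and had at most 0.0421 cpm.

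The methyl groups of lanosterol are removed by *Cyp51*, *Msmo1*, *Nsdhl* and *Hsd17b7*. *Cyp51* (ENSMUSG00000001467, chromosome 5 from 4081145 to 4104746, minus strand), the cytochrome P450 that removes the 14-methyl group, had the largest fall of the 9 genes with both particles. It was measured at 195, 210.0 and 191 cpm in the controls, at 57.4, 53.5 and 81.3 cpm after VLDL-sized and at 57.9, 57.7 and 75.6 cpm after CHYL-sized particles. No treated library came near the controls, and replicate 3 was again the highest treated library. Its log2 fold changes were -1.66 (standard error 0.14, adjusted p = 1.2e-05) and -1.65 (standard error 0.14, adjusted p = 2.0e-05). *Akap9*, on the opposite strand, shares 166 exonic bases with *Cyp51* and lay between 33.9 and 51.1 cpm; whether reads were assigned by strand is not given in the sources used here.

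*Msmo1* (ENSMUSG00000031604, chromosome 8 from 64718139 to 64733792, minus strand), the methylsterol oxidase that starts the removal of the 4-methyl groups, had the smallest p-values of the 9. Its libraries gave 283, 293 and 265 cpm in control, 91.6, 90.1 and 99.8 cpm with VLDL-sized and 91.6, 99.7 and 99.1 cpm with CHYL-sized particles. The treated libraries were close to each other and far below the controls. The log2 fold changes were -1.58 (standard error 0.06, adjusted p = 3.9e-08) and -1.53 (standard error 0.06, adjusted p = 6.8e-08). *Nsdhl* (ENSMUSG00000031349, chromosome X from 72918557 to 72958514, plus strand), the dehydrogenase of the same cycle, fell less. The controls had 98.6, 96.1 and 81.3 cpm, the VLDL-sized libraries 47.5, 47.9 and 62.4 cpm and the CHYL-sized libraries 46.0, 48.6 and 56.4 cpm. The groups did not overlap, but the third library of each group lay towards the other groups. Its falls were -0.81 (standard error 0.12, adjusted p = 3.4e-04) and -0.87 (standard error 0.12, adjusted p = 3.7e-04) on the log2 scale.

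*Hsd17b7* (ENSMUSG00000026675, chromosome 1 from 169949535 to 169969241, minus strand) encodes the ketosteroid reductase that closes the demethylation cycle. The controls gave 109, 117 and 105 cpm, the VLDL-sized libraries 41.1, 45.0 and 48.8 cpm and the CHYL-sized libraries 48.1, 47.8 and 48.2 cpm. The CHYL-sized libraries were nearly equal, and all treated libraries were under the lowest control. The log2 fold changes were -1.30 (standard error 0.07, adjusted p = 3.7e-07) and -1.20 (standard error 0.07, adjusted p = 8.6e-07).

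The last reactions move and reduce the double bonds of the rings. *Ebp* (ENSMUSG00000031168, chromosome X from 8185329 to 8193512, minus strand), the sterol isomerase of this stretch, changed least. Its controls had 49.6, 47.7 and 47.8 cpm, the VLDL-sized libraries 39.9, 41.3 and 44.6 cpm and the CHYL-sized libraries 41.0, 41.4 and 47.8 cpm. The VLDL-sized libraries lay just below the controls, while the third CHYL-sized library lay inside the control range. With VLDL-sized particles a fall of -0.21 on the log2 scale passed (standard error 0.07, adjusted p = 0.041), and this call was lost in 7 of 19 alternative analyses. With CHYL-sized particles it was -0.16 (95% confidence interval -0.31 to -0.0053, adjusted p = 0.12) and did not pass. Without the third CHYL-sized library it was -0.23 and passed (adjusted p = 0.032), and with the replicate number as a block it was -0.16 and passed (adjusted p = 0.045).

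*Sc5d* (ENSMUSG00000032018, chromosome 9 from 42251595 to 42264256, minus strand), the desaturase that places a double bond at carbon 5, had the tightest controls relative to its change. It had 122.7, 126 and 122 cpm in control, 61.9, 64.7 and 68.4 cpm with VLDL-sized and 62.4, 62.1 and 68.8 cpm with CHYL-sized particles. Its level was about halved in each treated library. The log2 fold changes were -0.93 (standard error 0.06, adjusted p = 1.3e-06) and -0.94 (standard error 0.06, adjusted p = 1.6e-06). *Dhcr7* (ENSMUSG00000058454, chromosome 7 from 143823145 to 143848410, plus strand) encodes the reductase that makes cholesterol from 7-dehydrocholesterol. Its controls were at 158, 151 and 139 cpm, and it was at 62.1, 61.7 and 81.0 cpm with VLDL-sized and at 60.7, 60.6 and 76.7 cpm with CHYL-sized particles. The third treated libraries were higher than the others and still well below the controls. It fell, with -1.14 on the log2 scale (standard error 0.11, adjusted p = 3.4e-05) and -1.19 (standard error 0.11, adjusted p = 4.5e-05).

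**Figure D3:**
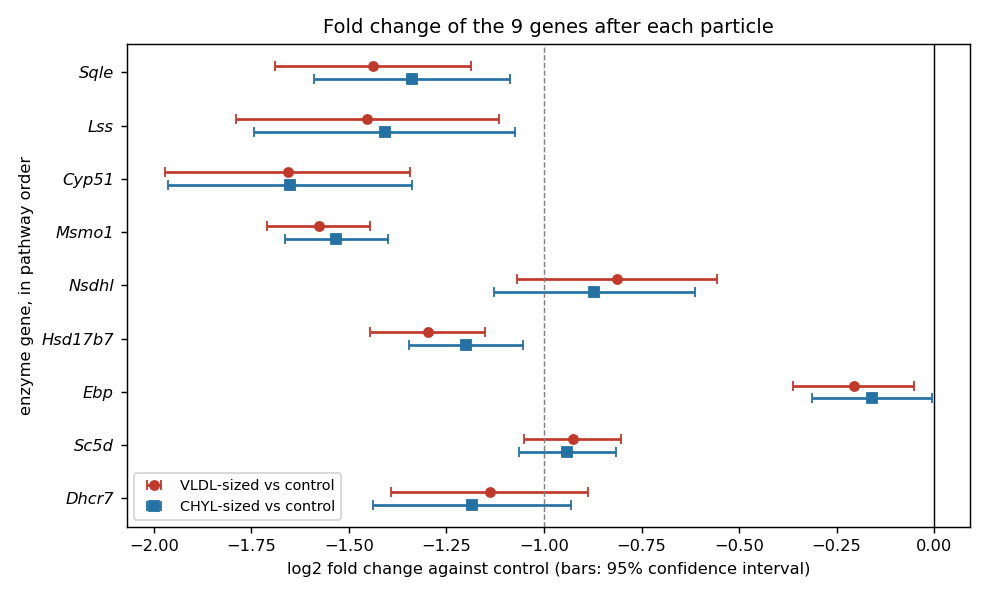
Log2 fold change against control of the 9 genes in pathway order, for VLDL-sized (circles) and CHYL-sized (squares) particles, with 95% confidence intervals from limma-voom; the dashed line is a halving. *Cyp51* lies farthest to the left at -1.66 and *Ebp* nearest to 0 at -0.21 and -0.16.

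The plot of fold changes in pathway order shows no steady trend along the pathway. The steps from *Sqle* to *Msmo1* lay between -1.66 and -1.34 with both particles, and the smaller falls, those of *Nsdhl*, *Ebp* and *Sc5d*, were separated by *Hsd17b7* with -1.30 and -1.20.

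The particle sizes were then compared with each other. None of the 9 genes passed the test between VLDL-sized and CHYL-sized particles, and 0.0% of all genes were called. Without adjustment, 813 of 12637 genes and 0 of the 9 had p under 0.05, and DESeq2 called 24 genes, the fit with a replicate block 147 and replicates 1 and 2 alone 257, none of them among the 9. The log2 differences (VLDL-sized minus CHYL-sized) ran from -0.10 for *Sqle* (95% confidence interval -0.35 to 0.15, adjusted p = 0.95) to 0.06 for *Nsdhl* (95% confidence interval -0.21 to 0.33, adjusted p = 0.98). The widest interval was that of *Lss*, -0.41 to 0.33 around -0.04, and the narrowest that of *Sc5d*, -0.12 to 0.14 around 0.01. Differences within these intervals were not resolved with 3 libraries a group.

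Summed over the 9 genes, the controls held 1516, 1552 and 1355 cpm, the VLDL-sized libraries 573, 585 and 656 cpm and the CHYL-sized libraries 599, 612 and 643 cpm. The third control was the lowest of its group, and the third treated libraries were the highest of theirs. *Sqle* went the other way in the treated libraries. It made up 25.2, 25.6 and 19.3% of the sum after VLDL-sized particles and 26.7, 26.5 and 20.1% after CHYL-sized particles, with replicate 3 the lowest each time, and 26.9, 26.6 and 23.7% in control.

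Libraries with the same replicate number were set side by side as a further description. The smallest fall of each gene was in replicate 3, with both particles. For *Lss* the log2 differences from the same-numbered control were -1.78, -1.66 and -0.92 with VLDL-sized and -1.59, -1.62 and -1.02 with CHYL-sized particles. For *Dhcr7* they were -1.34, -1.29 and -0.78, and -1.38, -1.32 and -0.86. *Sqle* was the most even, with -1.35, -1.35 and -1.31 with CHYL-sized particles. The standing apart of replicate 3 moved with the size of these falls, and its part in them was not tested. From replicates 1 and 2 alone all 9 genes were called lower with both particles, in a fit that called 21.4% of all genes lower with VLDL-sized and 16.4% with CHYL-sized particles.

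**Figure D4:**
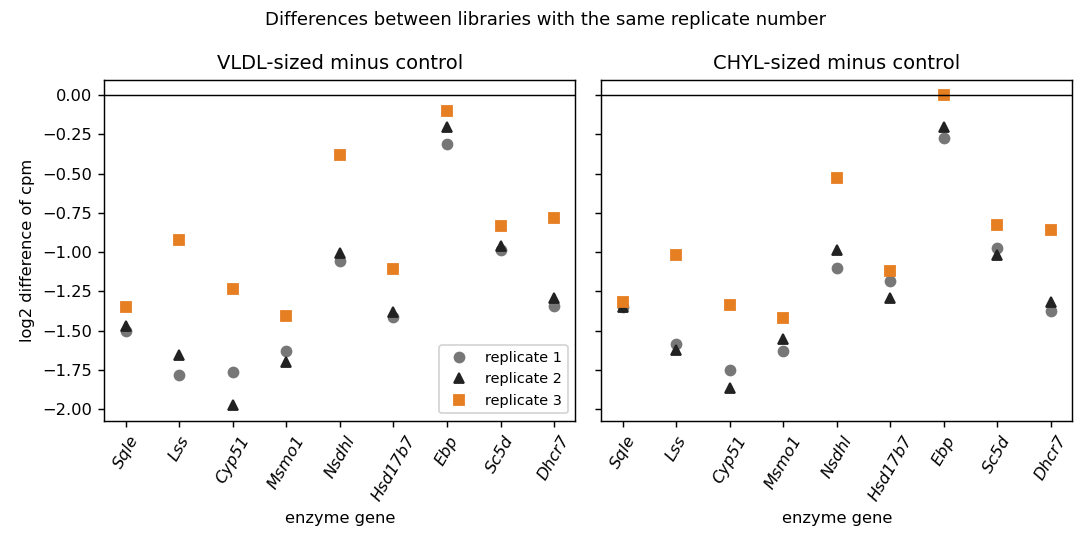
Log2 difference in cpm between each treated library and the control library of the same replicate number, for the 9 genes, with VLDL-sized (left) and CHYL-sized (right) particles. The squares of replicate 3 lie nearest to 0 for every gene, and the one of *Ebp* with CHYL-sized particles touches the line.

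Levels of different genes were compared per kilobase of the longest protein-coding transcript. In control *Sqle* was at 138 ± 18.6 and *Msmo1* at 137 ± 7.004 cpm per kb (SD, n = 3). By this length these did not differ beyond their spread. *Dhcr7* at 53.0 ± 3.32, *Cyp51* at 50.5 ± 2.54 and *Nsdhl* at 42.4 ± 4.31 cpm per kb followed, of which *Dhcr7* and *Cyp51* overlapped. *Ebp* had 27.7 ± 0.614, *Sc5d* 25.8 ± 0.434 and *Hsd17b7* 23.9 ± 1.35 cpm per kb. *Lss* was lowest at 19.5 ± 1.67 cpm per kb. After VLDL-sized particles *Sqle* and *Msmo1* were still highest at 50.8 ± 4.38 and 45.9 cpm per kb, and *Lss* lowest at 7.27 ± 1.87 cpm per kb. *Ebp*, the gene that changed least, had rank 6 of 9 in control. After VLDL-sized particles it lay with *Nsdhl* and *Dhcr7*, at 24.1 ± 1.38, 24.3 ± 3.92 and 24.3 ± 3.91 cpm per kb. After CHYL-sized particles these 3 had 24.9 ± 2.18, 23.2 ± 2.50 and 23.4 ± 3.28 cpm per kb. By this length their order was within their spread. With the union of all annotated exons as length, *Sqle* stayed first and *Lss* last in each group, while the ranks between them changed. *Msmo1* went to rank 4 in the treated groups and *Dhcr7* from rank 3 to rank 5 in control. *Sqle* (68.7 ± 9.23) then lay above *Msmo1* (45.6 ± 2.33 cpm per kb) in control, without overlap. *Ebp* had rank 8 in control, 3 with VLDL-sized and 2 with CHYL-sized particles. *Dhcr7* then lay below *Ebp* and *Nsdhl* in both treated groups. With VLDL-sized particles it was 11.7 ± 1.89 against 18.2 ± 1.04 and 18.4 ± 2.98 cpm per kb. With CHYL-sized particles it was 11.3 ± 1.59 against 18.8 ± 1.65 and 17.6 ± 1.90 cpm per kb.

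Other enzymes of this stretch of the pathway were taken from a list. All 3 of its genes were called lower with both particles, beside 17.9% of all genes with VLDL-sized and 13.0% with CHYL-sized particles. *Fdft1*, the squalene synthase just before *Sqle*, fell by -1.74 (standard error 0.08, adjusted p = 1.9e-07) and -1.56 (adjusted p = 4.5e-07) on the log2 scale. *Tm7sf2* and *Lbr*, which share the sterol 14-reductase step, had -0.44 and -0.58 with VLDL-sized and -0.35 and -0.52 with CHYL-sized particles.

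The oxygen-using steps of *Sqle*, *Cyp51*, *Msmo1* and *Sc5d* draw electrons from a small set of partners. Of 5 such genes, 4 were called higher and 1 lower after VLDL-sized particles (17.8% and 17.9% of all genes). With CHYL-sized particles 3 were called higher and 1 lower (12.7% and 13.0% of all genes). *Cyb5a*, cytochrome b5, rose from a mean of 103 to 386 and 381 cpm, on the log2 scale by 1.90 (standard error 0.04, adjusted p = 1.4e-09) and 1.88 (standard error 0.04, adjusted p = 1.6e-09). *Por*, the P450 reductase that serves *Cyp51* and *Sqle*, rose by 1.03 (standard error 0.08, adjusted p = 6.1e-06) and 0.94 (adjusted p = 1.9e-05). *Pgrmc1*, a heme protein that binds P450 enzymes, rose by 0.46 and 0.31. *Cyb5b*, the outer mitochondrial form of cytochrome b5, fell by log2 fold changes of -0.32 and -0.33. *Cyb5r3*, the reductase of cytochrome b5, rose by 0.15 (adjusted p = 0.036) with VLDL-sized particles, a call that was lost on library size alone (0.06, adjusted p = 0.38), and did not pass with CHYL-sized particles (0.09, adjusted p = 0.22).

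The enzymes upstream, from acetyl-CoA to farnesyl diphosphate, fell too, with 7 of 7 called lower with both particles. Among all genes 17.9% were called lower with VLDL-sized and 13.0% with CHYL-sized particles. Their median log2 fold change was -1.32 with VLDL-sized and -1.25 with CHYL-sized particles. *Hmgcs1*, which makes HMG-CoA, had the largest fall, -2.23 (adjusted p = 2.7e-06) and -2.06 (adjusted p = 6.6e-06). *Fdps*, which makes farnesyl diphosphate, had the smallest, -0.63 (adjusted p = 2.4e-04) and -0.66 (adjusted p = 3.1e-04). *Mvd* and *Acat2*, both at -1.74 with VLDL-sized particles, came after *Hmgcs1*.

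Of 7 genes that process SREBP, 2 were called higher and 4 lower after VLDL-sized particles (17.8% and 17.9% of all genes). After CHYL-sized particles 1 was called higher and 4 lower (12.7% and 13.0% of all genes). *Insig1*, which holds SREBP in the endoplasmic reticulum and is itself induced by it, fell by log2 fold changes of -2.14 and -2.002. *Srebf2* had -0.69 and -0.61, *Srebf1* -1.37 and -1.19, and *Mbtps1*, the first SREBP protease, -0.28 and -0.24. *Insig2* rose by 0.26 with both (adjusted p = 0.011 and 0.016), calls that were lost on library size alone (adjusted p = 0.10 and 0.11). *Mbtps2*, the second protease, rose by 0.32 with VLDL-sized particles and had 0.20 with CHYL-sized particles (adjusted p = 0.051). *Scap*, the escort of SREBP, had -0.14 (adjusted p = 0.054) and -0.10 (adjusted p = 0.15). On library size alone it passed as lower with both (-0.23, adjusted p = 0.0034, and -0.18, adjusted p = 0.015).

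Of 2 genes of sterol uptake and transport, 1 was tested. *Stard4*, a sterol carrier, fell with both particles, with log2 fold changes of -1.31 and -1.23, and *Npc1l1*, a sterol importer of the gut, was at or under 3 counts in each library. Of 5 genes of sterol esterification and oxidation 4 were tested, with 1 called higher and 2 lower with each particle. Among all genes, 17.8% were called higher and 17.9% lower with VLDL-sized, and 12.7% and 13.0% with CHYL-sized particles. *Soat1*, which esterifies cholesterol for storage, rose by 0.41 (adjusted p = 0.0015) and 0.34 (adjusted p = 0.0065). *Soat2* had 0.21 and 0.05 and did not pass. *Ch25h*, the cholesterol 25-hydroxylase, fell from a mean of only 0.621 cpm in control to 0.197 and 0.226 cpm, and with DESeq2 its call with CHYL-sized particles was lost (adjusted p = 0.075). *Cyp27a1*, the sterol 27-hydroxylase, had -0.28 (adjusted p = 0.024) and -0.25 (adjusted p = 0.049), and the second call was also lost with DESeq2 (adjusted p = 0.055). *Cyp7b1* was at 0 in all libraries.

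**Figure D5:**
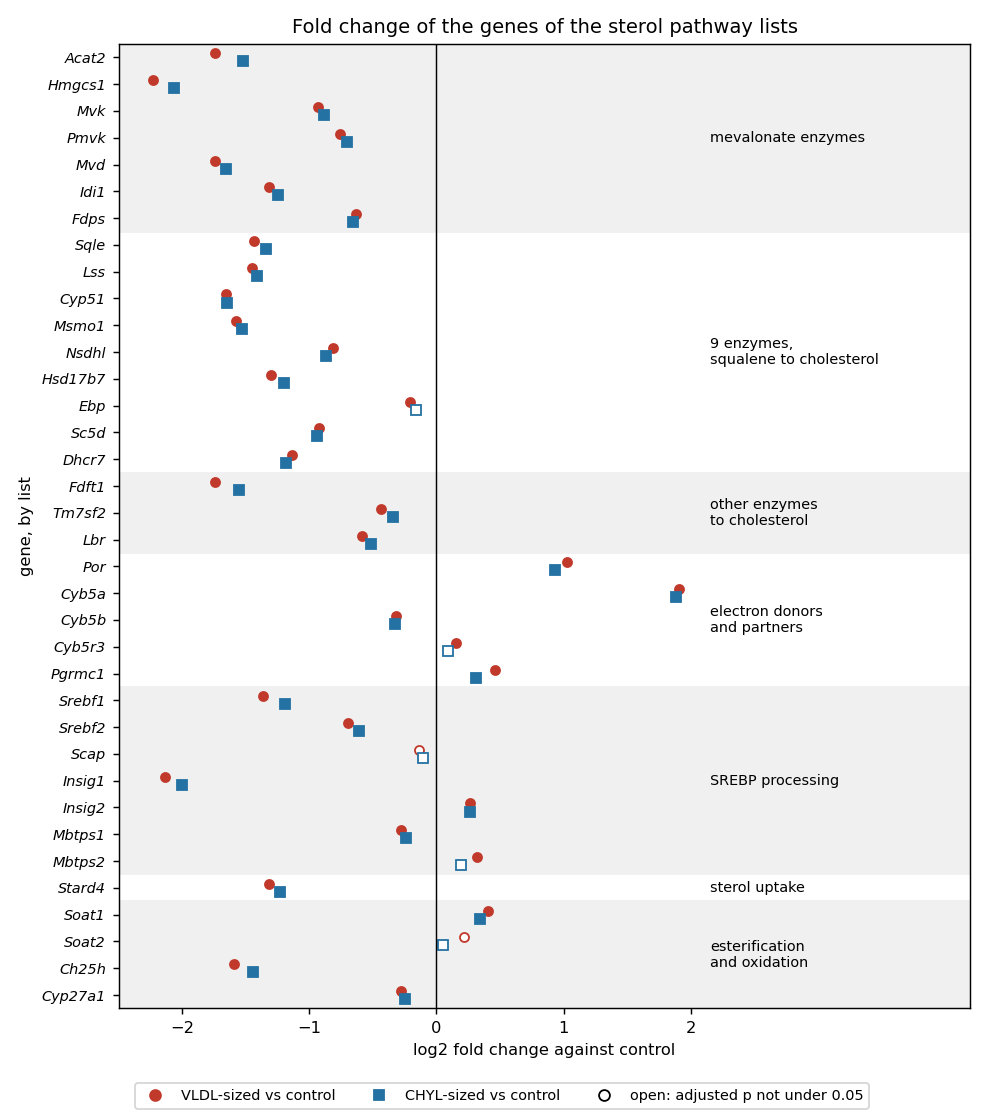
Log2 fold change against control for the tested genes of each list, circles for VLDL-sized and squares for CHYL-sized particles, filled where the adjusted p was under 0.05. The mevalonate enzymes, the 9 enzymes and *Fdft1* lie left of 0, from -2.23 to -0.16, while *Cyb5a* and *Por* lie farthest to the right, at 1.90 and 1.03.

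The genes whose levels across the 9 libraries were most like the mean profile of the 9 genes were *Mvd* (Pearson's r = 0.997), *Mvk* (r = 0.995), *Fdps* (r = 0.992), *Acat2* (r = 0.992) and *Cers4* (r = 0.991). The first 4 are on the list of mevalonate enzymes, and *Cers4* encodes a ceramide synthase. The r of the 9 genes with the profile that they themselves make up ran from 0.866 (*Ebp*) and 0.937 (*Sqle*) to 0.996 (*Dhcr7*). These values are a description over 9 libraries in 3 groups that share the difference between control and treated libraries.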

How the data were processed

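RNAseq of 9 libraries (3 untreated, 3 VLDL-sized, 3 CHYL-sized) was analysed. Per the labels and the study's methods, the authors quantified reads with Salmon 0.14.1 on GRCm38.p6 and deposited estimated counts per gene, imported from transcripts. Of the deposited values above 10, 58.3% were whole (within 1e-06), and counts entered the limma fits unrounded. The study describes a scaling of counts for transcript length at import, and no length scaling was added here. Depth was 22393893 to 22856792, so 3 counts were 0.126 to 0.137 cpm.

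Groups were taken from the labels. A gene was tested where 3 or more libraries held over 10 counts (12637 of 54432 genes). Following the study's methods, counts were normalized by TMM (edgeR 4.0.16) and fitted with limma-voom 3.58.1 (R 4.3.3) in 1 model without a block, with Benjamini-Hochberg adjustment and calls at 0.05. DESeq2 1.42.0, edgeR's quasi-likelihood test, limma-trend, other scalings and filters, a replicate block, fits of 2 groups only and leaving out each library were alternatives. The code was tested on simulated counts. The cpm were first computed on library totals; the TMM scale, that of the fits, was chosen after those values were seen. Symbols came from GENCODE (54346 IDs matched), and promoter windows, in which 3 motifs were searched, from RefSeq.

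The genes named are the 9 enzymes, 6 pathway lists and the 5 genes with the most similar profile. The 9 genes and the lists were chosen with earlier results of these data known, and some genes of the lists are not reported here. Same-numbered VLDL-sized and control libraries deviated together (r = 0.138, 0.132 and 0.293 over 12637 genes), which by the rule used pairs them. Libraries of these groups with different numbers ran from -0.217 to 0.116, the highest being VLDL-sized replicate 2 with control replicate 1. The pairing therefore rests mainly on replicate 3, and the labels name no shared batch. The main fit did not use this pairing, and the replicate block was an alternative.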

Additional observations from a re-analysis of the deposited data

How the results depend on the processing

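Of the 9 genes, 8 kept their direction and their call in both comparisons with control under all 19 alternatives. *Ebp* did not. With VLDL-sized particles its adjusted p ran from 0.0022 to 0.13 and its log2 fold change from -0.30 to -0.17, and the call was lost without the filter and without each control, VLDL-sized replicate 1 or 2, or CHYL-sized replicate 2. With CHYL-sized particles its adjusted p ran from 0.0051 to 0.31, and it passed on library size alone, with the replicate block, without the third CHYL-sized library and from replicates 1 and 2 only. On cpm from library totals 9 genes in place of 8 had all CHYL-sized libraries below all controls, with 29.6% of all genes. Those cpm leave out the TMM factors, which were 1.02 to 1.05 in the controls and 0.970 to 0.995 in the CHYL-sized libraries. Why these factors differed was not tested.

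With the replicate block 6058 in place of 4500 genes were called with VLDL-sized particles and 4949 in place of 3249 with CHYL-sized particles. Between the particles 147 in place of 0 were called. The block changed no call of the 9 genes other than that of *Ebp*. Same-numbered CHYL-sized and control libraries correlated at 0.124, 0.0684 and 0.338, and VLDL-sized and CHYL-sized libraries at 0.0286, 0.117 and 0.357, so not every pair passed 0.1. Some pairs with different numbers were higher, as CHYL-sized replicate 2 with control replicate 1 (0.155). VLDL-sized replicate 1 with CHYL-sized replicate 2 had 0.179. In these comparisons the numbers did not tell replicates 1 and 2 apart. Between the particles DESeq2 called 24 genes, replicates 1 and 2 only, chosen after seeing the data, 257, and leaving out a library 0 to 1 (without VLDL-sized replicate 3 or CHYL-sized replicate 2). On library size alone the median of all genes moved to -0.09 and -0.08, and the share of calls that were higher to 31.3 from 49.9% and to 29.8 from 49.6%.

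Between the particles small uncalled differences turned sign. *Cyp51* had 0.0089 with DESeq2 and 0.0068 with edgeR. Without 1 library *Lss* ran from -0.24 to 0.11, *Cyp51* from -0.19 to 0.12, *Nsdhl* from -0.0707 to 0.14, *Sc5d* from -0.0242 to 0.0616, *Dhcr7* from -0.0826 to 0.16 and *Ebp* from -0.0920 to 0.0237. None of the 9 genes passed in any of these. At this depth genes under 3 counts (0.126 to 0.137 cpm) could not be compared.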
